A study of Arabidopsis thaliana with 2 samples.

Results

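Pectin methylesterases and pectate lyases, enzymes that modify and cut the pectin of plant cell walls, were followed in rosette leaves of *Arabidopsis thaliana* plants that over-expressed NST1. The members were 40 pectin methylesterase and 20 pectate lyase loci, and the probes assigned to exactly 1 gene by the platform's annotation were searched for them. A probe was found for 38 of the 60 loci, 22 pectin methylesterases and 16 pectate lyases, out of 9253 genes with such a probe. These 38 genes had 39 probes, because the pectate lyase AT5G04310 had a pair of them.

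NST1 belongs to the NAC family of plant transcription factors and directs the thickening of secondary walls in fibres and other supporting cells. In the study, RNA of 2 over-expressors, the independent transformants no. 36 and no. 44 (plant 36 and plant 44), was set against RNA of wild type, in leaves 2 weeks old grown in cycles of 16 h light and 8 h dark without treatment. Both were T1 plants, meaning primary transformants, in which the 35S promoter, active in most cell types, drove NST1, and per the labels they formed ectopic secondary walls in above-ground organs. Each plant was measured on 1 array, with the over-expressor in Cy5 and wild type in Cy3, so that the dyes were never swapped and a dye effect cannot be told apart from the genotype.

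Homogalacturonan, the main pectin of the primary wall, is secreted with its acid groups largely methyl-esterified. Pectin methylesterases remove the methyl groups, after which the chain can bind calcium and stiffen, or can be cut by pectate lyases, which break it by elimination, and by polygalacturonases, which hydrolyse it. Inhibitor proteins bind and block pectin methylesterases, and subtilisin-like proteases remove the inhibitor-like pro-region that many of these enzymes carry. In leaves the balance of these activities is known to bear on growth, adhesion between cells and defence.

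The authors deposited a log ratio for each probe on each array, which is read here as log10, since no source used here states the base, the centring or which dye was on top. Going by the dyes and titles, a value above 0 likely means more transcript in the over-expressor, and folds are given as they follow from base 10. The median of all 22575 probes lay at -0.002 in plant 36 and -0.004 in plant 44. As the centring is not stated, these medians cannot show whether a shift was common to all probes. Every probe was fitted with limma and tested two-sided against 0, and "rose" and "fell" are used of probes with a Benjamini-Hochberg adjusted p under 0.05 over all probes. These p-values rest on the spread between the 2 plants and on that of other probes, which limma borrows. They leave out the spread of wild type, which counted as 1 control sample. The number of arrays limits the precision. Of 77 genes with exactly 2 probes, 45 had the same sign of the mean in both, 13 had 1 probe past the threshold and 0 had both. In 5 of the 77, both probes had an unadjusted p under 0.05 in limma, and in 0 without its prior. Among all probes with 1 gene, 22.4% passed and 46.9% had an unadjusted p under 0.05 in limma. On both arrays 41.0% of them lay below 0 and 42.2% above. These are shares of single probes, whereas the counts above are of genes with a pair of probes. Among the 77 genes, probes of the same gene showed little agreement, and genes with 1 probe could not be checked in this way. This limits how far the name of every probe can be trusted, and below a gene name stands for the probe that carries it.

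Of the 39 member probes, 1 rose and 7 fell in the over-expressors, while 31 did not pass. Among all 9335 probes with 1 gene, 9.99% rose, 12.4% fell and 22.4% passed in either direction. The 8 member probes that passed are thus 20.5% of the members, near the share among all such probes, while the split by direction was 2.56% that rose and 17.9% that fell. By gene, 1 member rose, 6 fell, 30 did not pass, and the probes of AT5G04310 disagreed. Without limma's prior, which borrows the spread of other probes, 0 members passed, the 8 had adjusted p between 0.236 and 0.275, and 6 members, or 15.4%, had an unadjusted p under 0.05, against 20.5% of all 1-gene probes in that fit. In limma 15 members, or 38.5%, had one, against 46.9% of all 1-gene probes. How many of all 1-gene probes passed after adjustment without the prior is not given here, so that 0 has no share beside it. In bulk leaf RNA, fewer cells of a type and less RNA per cell cannot be told apart.

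Low values were frequent among the members. On both arrays, 21 of the 39 probes lay below 0 and 5 above it, where 41.0% of all 1-gene probes lay below and 42.2% above. The other 13 had opposite signs or a value of 0. The median of the member means was -0.04, at -0.05 in each plant, against 0.001 over all 1-gene probes. Beyond 2-fold on both arrays lay 1 member on each side, where 2.71% of all 1-gene probes lay higher and 2.44% lower.

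**Figure D1:**
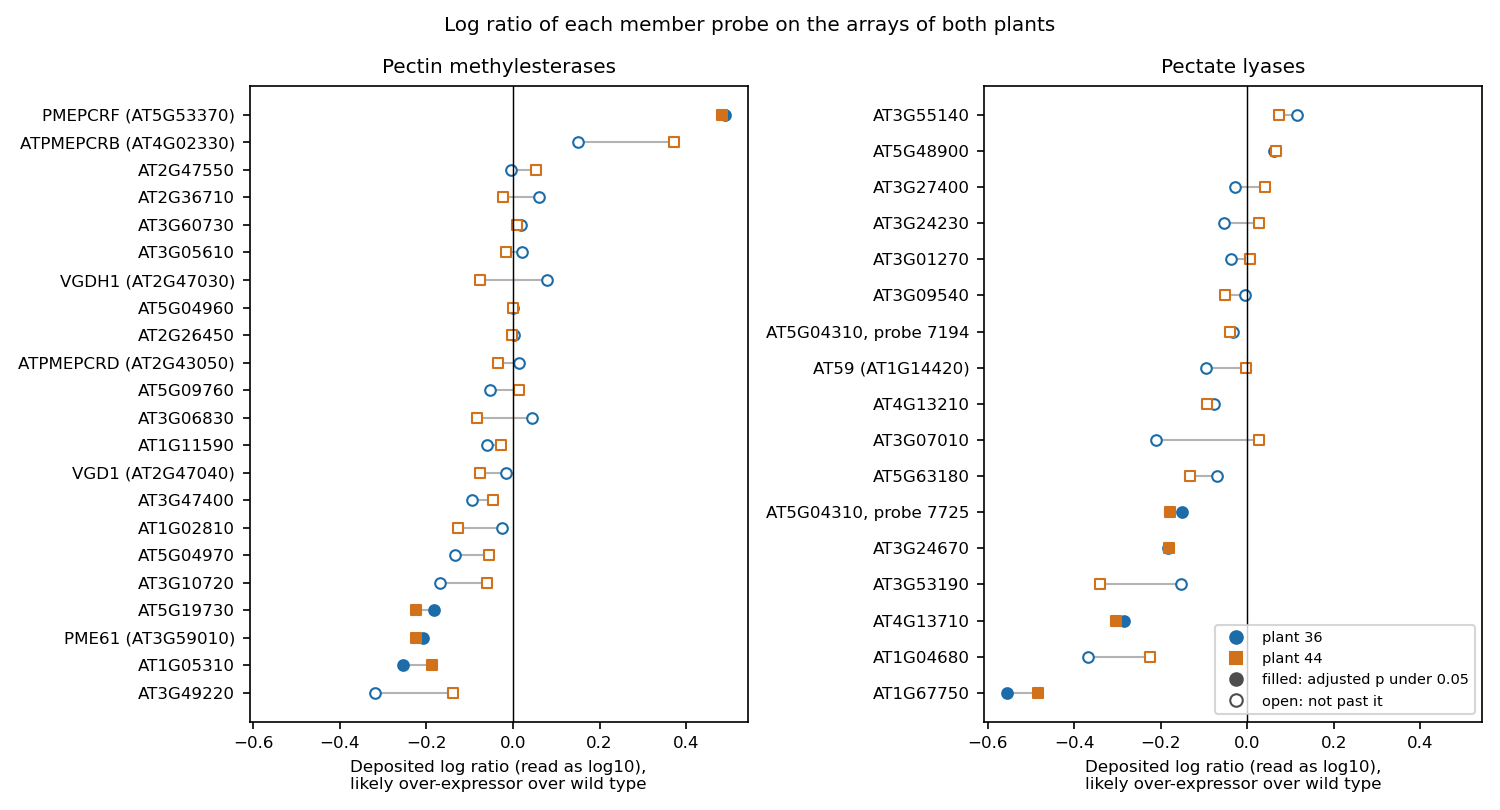
Deposited log ratio (horizontal axis, read as log10, likely over-expressor over wild type) of every member probe, with pectin methylesterases on the left and pectate lyases on the right; circles are plant 36, squares plant 44, and filled symbols mark an adjusted p under 0.05. PMEPCRF stands alone at the upper end with 0.490 and 0.482, AT1G67750 at the lower end with -0.556 and -0.484, and most other members lie near or a little below 0.

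The single member that rose was PMEPCRF (AT5G53370), a pectin methylesterase named for a fragment amplified from this family. Its log ratio was 0.490 in plant 36 and 0.482 in plant 44. The plants thus differed by far less than the size of the value, and the mean was 0.49 ± 0.01 (SD, n = 2 plants), or 3.06-fold higher if the base is 10 and 1.40-fold if it is 2 (limma adjusted p = 0.0178). Among all 1-gene probes, 119 had a higher mean.

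ATPMEPCRB (AT4G02330), also called PME41, was the other pectin methylesterase well above 0. It lay at 0.150 in plant 36 and 0.371 in plant 44, a mean of 0.26 ± 0.16. Both values were positive, but their distance was almost as large as the mean, and the probe did not pass (adjusted p = 0.123). Its neighbour on the chromosome, the pectin methylesterase AT4G02320, had no named probe.

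Pectin methylesterases that fell numbered 3. AT1G05310 had -0.255 in plant 36 and -0.188 in plant 44, with a mean of -0.22 ± 0.05, or 1.67-fold lower if the base is 10 (adjusted p = 0.0434). PME61 (AT3G59010), also listed as PME35 and known for the mechanical strength of the inflorescence stem, had -0.207 and -0.225, with a mean of -0.22 ± 0.01, or 1.64-fold lower (adjusted p = 0.0305). AT5G19730 had -0.183 and -0.223, with a mean of -0.20 ± 0.03, or 1.60-fold lower (adjusted p = 0.0361). The 3 were alike in size, and in each both plants lay below 0.

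AT3G49220 had the lowest mean of the pectin methylesterases, at -0.23 ± 0.13, without passing (adjusted p = 0.112). Plant 36 lay at -0.318 and plant 44 at -0.139, so the plants differed by 0.18 on the log10 scale. This mean is close to those of the 3 that fell, while the gap between the plants was wider. Further up lay AT3G10720 at -0.168 and -0.059, AT5G04970 at -0.133 and -0.056, AT1G02810 at -0.026 and -0.126, and AT3G47400 at -0.094 and -0.047, in plant 36 and plant 44 in turn. These 4 were below 0 in both plants, and none passed, with adjusted p between 0.128 and 0.231.

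A further 12 of the 22 pectin methylesterase probes, or 54.5%, had a mean within 0.05 of 0, against 38.4% of all 1-gene probes. They include VGD1 (AT2G47040), a pollen enzyme needed for growth of the pollen tube through the style, at -0.017 and -0.077. VGDH1 (AT2G47030), its homolog and next neighbour on the chromosome, lay at 0.078 in plant 36 and -0.077 in plant 44. Probes of such close homologs may read both transcripts, which was not tested. The others in this band were AT1G11590, AT3G06830, AT5G09760, ATPMEPCRD (AT2G43050), AT2G26450, AT5G04960, AT3G05610, AT3G60730, AT2G36710 and AT2G47550, with means between -0.04 and 0.02. Of these, AT5G04960 was listed at 0 in both plants, as were 249 probes in all, and whether its spot was measured is not known here. Its next neighbour AT5G04970, described above, was below 0 in both.

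The pectate lyases lay lower as a family, with a median of -0.08 against -0.02 for the pectin methylesterases. Of their 17 probes 4 fell, 0 rose and 13 did not pass in limma, so that 23.5% passed, near the 22.4% among all 1-gene probes, of which 12.4% fell and 9.99% rose. At an unadjusted p under 0.05 lay 8 lower and 2 higher, where 23.3% of all 1-gene probes lay lower and 23.6% higher. Without limma's prior these were 3 lower and 1 higher, against 11.1% and 9.35% of all 1-gene probes. On both arrays, 11 of the 17 were below 0 and 2 above, whereas 10 of the 22 pectin methylesterase probes were below and 3 above. The difference between the families was not tested.

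**Figure D2:**
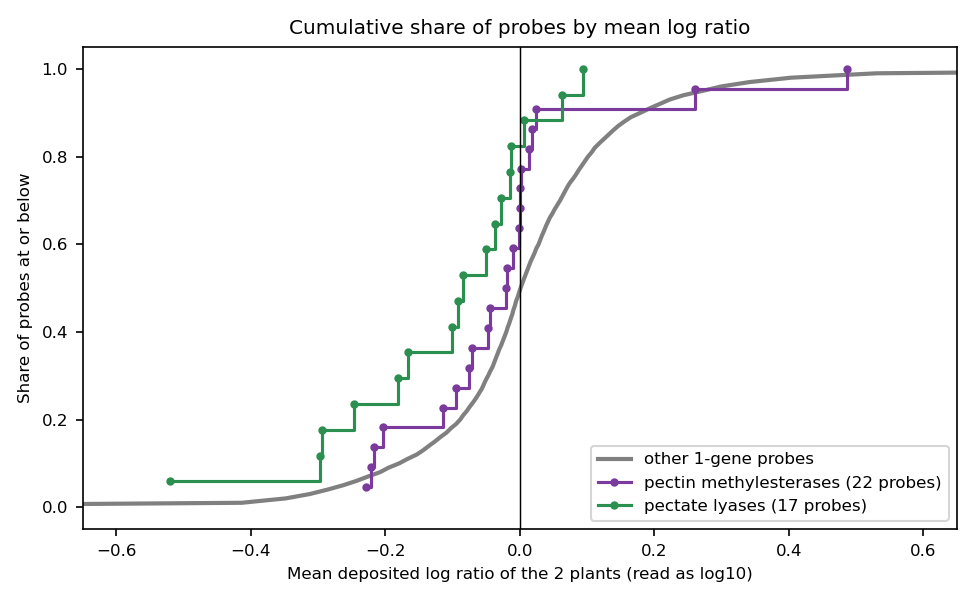
Cumulative share of probes (vertical axis) by the mean deposited log ratio of the 2 plants (horizontal axis, read as log10), for pectin methylesterases, pectate lyases and all other 1-gene probes. Over most of its range the pectate lyase curve lies left of the others, with a median of -0.08, and the pectin methylesterase curve, with a median of -0.02, is steep around 0 and ends with 2 members far to the right.

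AT1G67750 was the lowest member. Its log ratio was -0.556 in plant 36 and -0.484 in plant 44, with a mean of -0.52 ± 0.05, or 3.31-fold lower if the base is 10 and 1.43-fold if it is 2 (adjusted p = 0.0272). Of all 1-gene probes, 40 had a lower mean.

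The other pectate lyases that fell did so by less. AT4G13710 had -0.285 and -0.304, with a mean of -0.29 ± 0.01, or 1.97-fold lower if the base is 10 (adjusted p = 0.0266). AT3G24670 had -0.183 and -0.180, with a mean of -0.18 ± 0.00, or 1.52-fold lower (adjusted p = 0.0317). In both genes the plants had nearly the same value. AT5G04310 had a probe that fell, at -0.152 and -0.179, with a mean of -0.17 ± 0.02 (adjusted p = 0.0373). Its other probe lay at -0.034 and -0.040, with a mean of -0.04, and did not pass (adjusted p = 0.175). The probes thus had the same sign but differed by more than the plants did, and which of them follows the gene better was not tested.

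A pair of pectate lyases had low means with a wide gap between the plants and did not pass. AT1G04680 had -0.369 in plant 36 and -0.225 in plant 44, a mean of -0.30 ± 0.10 (adjusted p = 0.0626). AT3G53190 had -0.153 and -0.341, a mean of -0.25 ± 0.13 (adjusted p = 0.108). In the first the lower value was that of plant 36, in the second that of plant 44. AT1G04680 passed in 5 of the alternative fits, among them the one with each array centred on its median (adjusted p = 0.0389, without a prior 0.318, and from 0.0310 to 1 over all its alternatives).

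AT3G07010 showed the largest difference between the plants among all members, at -0.211 in plant 36 and 0.026 in plant 44. The difference was 0.24 on the log10 scale, and the mean of -0.09 ± 0.17 did not pass (adjusted p = 0.439). Next in size were ATPMEPCRB, with 0.22 between the plants, and AT3G53190, with plant 44 lower by 0.19. With 1 array per plant, none of these differences could be tested.

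The remaining pectate lyases were closer to 0. AT5G63180 had -0.070 and -0.132, AT4G13210 had -0.076 and -0.093, and AT3G09540 had -0.005 and -0.052. AT59 (AT1G14420), a pectate lyase-like gene known from anthers and pollen, lay at -0.096 in plant 36 and -0.004 in plant 44. AT3G01270, AT3G24230 and AT3G27400 had values of opposite sign in the plants and means between -0.02 and 0.01. At the upper end lay AT5G48900, with 0.061 and 0.066, a mean of 0.06 ± 0.00. With it was AT3G55140, with 0.115 and 0.074, a mean of 0.09 ± 0.03. Both were above 0 in each plant, and neither passed (adjusted p = 0.0868 and 0.0798).

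**Figure D3:**
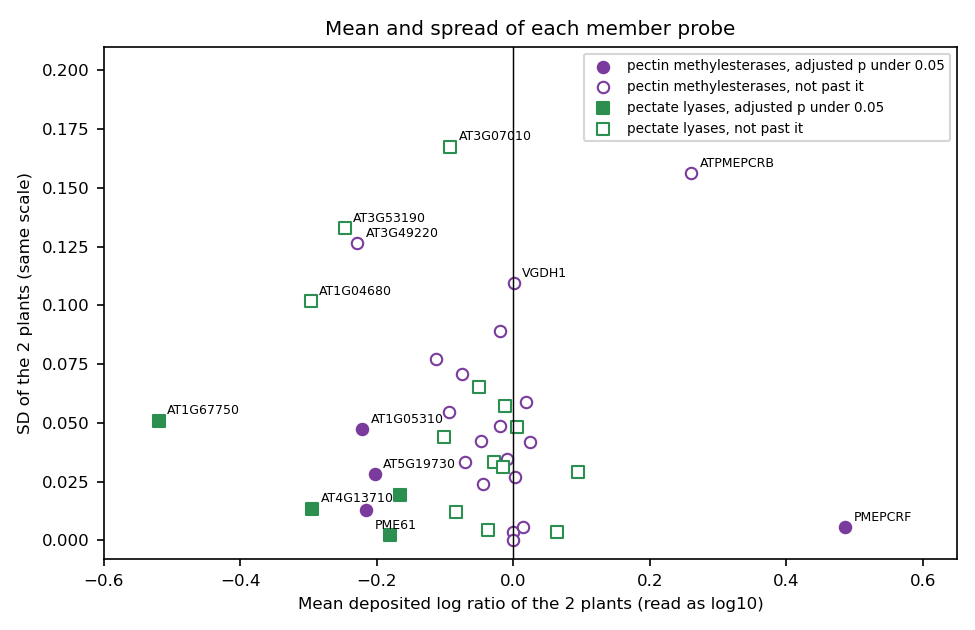
Mean deposited log ratio of each member probe (horizontal axis, read as log10) against the SD of the 2 plants (vertical axis, same scale), with filled symbols for an adjusted p under 0.05. The members that passed combine a mean beyond 0.16 in size with an SD of at most 0.05, whereas ATPMEPCRB, AT1G04680, AT3G53190 and AT3G49220 have means as large and an SD between 0.10 and 0.16.

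The means of the members that did not pass overlapped with those of the members that passed. The SD between the plants ranged from 0.00 to 0.17 over the member probes, with a median of 0.04, against 0.03 over all 1-gene probes. In 8 member probes the plants differed by more than 0.1 on the log10 scale, and in 12 they had opposite signs. A pair of values, -0.220 in plant 36 and -0.082 in plant 44, recurred in 73 probes of the table, none of which was a member.

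The proteins that hold pectin methylesterases in check were measured by 19 of 37 listed inhibitor genes, a list written from general knowledge of the family, since the tables used here give most of these loci no name. Of the 19, 1 rose, 3 fell and 15 did not pass, so that 21.1% passed, near the 22.4% of all 1-gene probes, and the median was -0.02. AT5G20740 was the lowest, at -0.583 and -0.676, a mean of -0.63 ± 0.07, or 4.26-fold lower if the base is 10 (adjusted p = 0.0272). Only 18 of all 1-gene probes had a lower mean, and it lay below every measured pectin methylesterase and pectate lyase.

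AT3G62820 fell as well, with -0.292 and -0.280 (adjusted p = 0.0262), and so did AT4G25260, with -0.263 and -0.220 (adjusted p = 0.0333). AT3G47670 rose, with 0.159 and 0.136 (adjusted p = 0.0398). On both arrays, 9 inhibitor probes lay below 0 and 4 above. The inhibitor gene AT3G47380, at -0.192 and -0.127 without passing, lies 1 gene away from the pectin methylesterase AT3G47400.

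All 3 listed subtilases that are linked to processing or control of pectin methylesterases were measured. Of these, 1 rose, or 33.3%, against 9.99% of all 1-gene probes, a coarse share with 3 probes. ARA12 (AT5G67360), known from seed coat mucilage, rose, with 0.138 and 0.178, a mean of 0.16 ± 0.03 (adjusted p = 0.0445). SBT3.5 (AT1G32940), known to process a root pectin methylesterase, had 0.099 in plant 36 and 0.448 in plant 44, and did not pass (adjusted p = 0.203). S1P (AT5G19660), a protease of the secretory pathway, lay at -0.005 and -0.015 and did not pass (adjusted p = 0.624).

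Polygalacturonases, which cut the same de-esterified chain as pectate lyases, were measured by 19 of 31 listed genes. Of these, 2 rose (10.5%, against 9.99% of all 1-gene probes), 3 fell (15.8% against 12.4%) and 14 did not pass. Their median was -0.04, with 9 probes below 0 on both arrays and 4 above. AT1G60590 had -0.757 and -0.610, a mean of -0.68 ± 0.10, or 4.83-fold lower if the base is 10 (adjusted p = 0.0313). AT1G10640 had -0.628 and -0.594, a mean of -0.61 ± 0.02, or 4.08-fold lower (adjusted p = 0.0178). Both lay below every pectate lyase.

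On the other side, AT3G42950 had 0.313 and 0.251 (adjusted p = 0.0346) and AT1G19170 had 0.306 and 0.256 (adjusted p = 0.0318), and both rose by 1.91-fold if the base is 10. The listed polygalacturonases thus reached further from 0 in both directions than the pectate lyases, whose highest mean was 0.09.

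**Figure D4:**
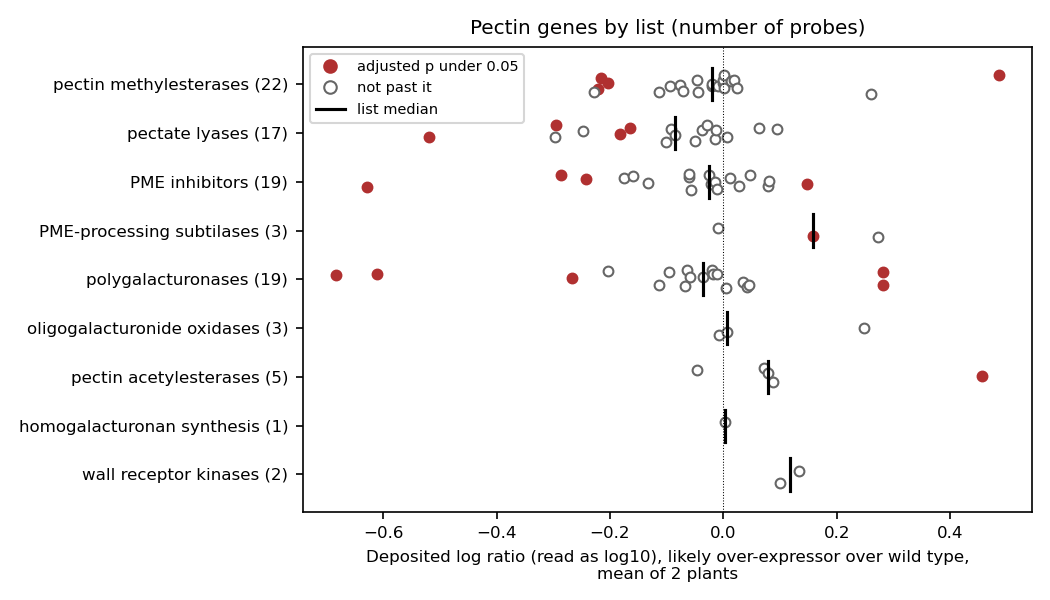
Mean deposited log ratio of the 2 plants (horizontal axis, read as log10) for each probe of the pectin gene lists, with the number of probes in brackets, filled points for an adjusted p under 0.05 and a black bar at the list median. Pectate lyases have a median of -0.08 and no probe above 0.0945, while the polygalacturonases spread from -0.68 to 0.28 and the acetylesterase AT1G57590 stands at 0.46.

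Other genes of pectin metabolism had fewer probes. Of 5 measured pectin acetylesterases, which remove acetyl groups from pectin, AT1G57590 rose, with 0.454 and 0.459, a mean of 0.46 ± 0.00, or 2.86-fold if the base is 10 (adjusted p = 0.0182). Its size is near that of PMEPCRF. The other 4 did not pass, and 3 of them lay above 0 in both plants. Of the 5, 20.0% rose and 80.0% lay above 0 on both arrays, against 9.99% and 42.2% of all 1-gene probes. With 5 probes these shares are coarse.

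None of the 3 measured oxidases of oligogalacturonides passed in limma. An unadjusted p under 0.05 there was held by 1 of them, or 33.3%, against 46.9% of all 1-gene probes. Of these enzymes, which act on the fragments released from pectin, AT4G20830 had the highest mean, with 0.184 and 0.313 (adjusted p = 0.0683), and AT4G20840 lay at -0.030 and 0.016. Homogalacturonan synthesis was covered by 1 of 25 listed genes, AT3G49720, at -0.008 and 0.014. The wall receptor kinases FER (AT3G51550) and THE1 (AT5G54380) lay at 0.060 and 0.140, and at 0.005 and 0.263, in plant 36 and plant 44 in turn, and did not pass. The wall-associated kinases and the polygalacturonase inhibitors had no named probe and were not analysed here.

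Markers were read beside these counts. None of the 10 listed genes of xylem and secondary walls and none of the 9 of flowers and pollen had a named probe, NST1 (AT2G46770) included, so neither the over-expression nor a change in such cells was checked here. The 3 root markers lay between -0.08 and -0.03 and did not pass, 2 of them with an unadjusted p under 0.05 in limma. Of 7 listed leaf photosynthesis genes 3 were measured and lay below 0 in both plants. LHCB4.3 (AT2G40100), an antenna protein gene, fell to -0.23 ± 0.01 (adjusted p = 0.0286). RCA (AT2G39730) and LHCB4.1 (AT5G01530) both held the shared pair of -0.220 and -0.082 and did not pass. Whether these are 2 separate measurements is not known here. Ratios carry no level, so the tissue itself could not be checked, and the part of any such shift in the members' values was not tested.

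The 22 members with no named probe were not analysed here. They are the pectin methylesterases PMEPCRA, PME1, PME2, PME3, PME5, PME31, PME44, PPME1, QRT1, RHS12, ATPMEPCRC, AT2G26440, AT2G36700, AT2G45220, AT3G05620, AT3G43270, AT4G02300 and AT4G02320, and the pectate lyases PMR6, AT1G11920, AT1G30350 and AT4G24780. Among them are genes with well studied roles, such as QRT1, which acts in the separation of pollen tetrads, and PMR6, which is needed for full growth of powdery mildew on leaves.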

How the data were processed

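The values used were log ratios of the 2 dyes as deposited by the authors, read here as log10, 1 column per array. Their making is not described by any source used here, and log10 was inferred from their range, held within -2 and 2, which does not settle the base. Probes were named through the platform's annotation, with symbols and gene order from the TAIR10.1 RefSeq table. Of 22575 probes, 9335 had 1 gene, 40 several and 13200 were unnamed here. All probes entered an intercept-only fit in limma 3.58.1 (R 4.3.3), with 1 residual and 1.37 prior degrees of freedom, with Benjamini-Hochberg adjustment over all probes and no filter or centring. The test was checked on simulated data with spreads drawn from limma's fitted prior, so its assumptions held there by design. That check had no dye effect, shared pair of values or wild-type sample, and so does not bear on these. Alternatives changed the centring, scaling, prior, threshold or probes.

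The members and gene lists were chosen with earlier results of these data known. Full statistics were given for members past the threshold, and for the 3 highest, the 3 lowest and the 3 with the largest difference between plants among the others. Up to 4 genes past the threshold were named per other list, otherwise the 2 with the largest mean in size.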

Additional observations from a re-analysis of the deposited data

How the results depend on the processing

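The count of 1 member that rose and 7 that fell kept within 1.5 times under centring, centring with scaling, a fit on probes with 1 gene, a robust prior, and without probes at 0, at the limits or with the shared pair, where 7 or 8 fell, and also without the 463 probes below -1.2 on both arrays, an alternative chosen after seeing the data. With centring, 1431 of all 9335 1-gene probes rose and 1441 fell, against 933 and 1156 without it. Of the 39 member probes, 1 rose and 8 fell with centring. The share that passed thus grew more among all 1-gene probes than among the members, so the nearness of these shares given above holds for the fit without centring. With no prior, and at an adjusted p of 0.01, 0 members rose and 0 fell. How many of all 1-gene probes passed at these settings is not given here, so the 0 is not set against a share. Unadjusted p under 0.05 was then held by 6 members without a prior (15.4%, against 20.5% of all 1-gene probes) and by 15 in limma (38.5% against 46.9%). A minimum fold of 1.2 left 3 that fell, AT1G67750, AT4G13710 and PME61. By a limit of 2-fold on both arrays, 1 member was higher and 1 lower, where 2.71% of all 1-gene probes lay higher and 2.44% lower. On a single array 1 to 2 were higher and 3 were lower by that limit, and the median of all 39 member probes was -0.053 to -0.047. No called member changed sign in any of these. Tests without 1 replicate were not run, since no residual degrees of freedom are left. No paired analysis was possible because there is 1 group, in which each ratio already sets 1 plant against wild type. Read as log2, alternatives also chosen after seeing the data, the test against 0 stays as it is, but 0 members lay at or beyond 2-fold on both arrays, and a minimum fold of 1.2 left 1 that rose and 0 that fell in limma, with 1 lower member, AT1G67750, at an unadjusted p under 0.05. For the minimum fold of 1.2, the single arrays and the readings as log2, shares of all 1-gene probes are not given here. The member counts at these settings thus cannot be called high or low. Without intensities, signal over background is unknown.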
